A study of Mus musculus with 6 samples.

Results

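Intermediate filament and lamin genes were followed in the gastrocnemius, a hindlimb muscle used for locomotion, from the end of gestation to adult life. The 10 genes were Des, Vim, Nes, Synm, Sync, Lmna, Lmnb1, Lmnb2, Krt8 and Krt18. They were chosen by symbol from the 23367 gene entries of the deposited table, and all 10 were present there. The 6 libraries, of polyadenylated RNA from FVB mice of the wild type, covered 5 stages. The E18.5 library was made from pooled male and female fetuses and the PN2 library (postnatal day 2) from pooled male pups. The remaining libraries came from 1 male mouse each, namely both PN14 replicates, PN28 and adult (22 weeks). No stage received a treatment, and all mice had the same genotype. Only PN14 had replicates, so that pair alone supplies the error of every comparison. According to the column names no libraries shared a lane, so lane and stage cannot be told apart.

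Intermediate filaments are rope-like polymers that give cells mechanical strength. In striated muscle, desmin filaments encircle the Z-discs, tie neighbouring myofibrils to each other and link them to the nucleus, the mitochondria and the cell membrane at sites called costameres. Vimentin and nestin are known from muscle precursors and young fibres, while synemin and syncoilin are unusual members that join desmin to the dystrophin-associated complex. Lamins are the nuclear intermediate filaments and line the inner nuclear membrane. A-type lamins come from Lmna and B-type lamins from Lmnb1 and Lmnb2, and mutations of LMNA or DES cause muscle disease in humans.

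The promoters of the 2 genes with the highest FPKM in the adult library among the members, Des and Synm, and of the cytoplasmic filament genes Vim and Nes, which were lower there than before birth, are shown because these genes had the opposite patterns described next. Each line gives the 250 bases before the start site from 5′ to 3′, taken from RefSeq on GRCm38.p6, a later build than that of the counts. Capitals mark the E-box CANNTG, the core letters bound by myogenic factors and other basic helix-loop-helix proteins. The Des window is chr1:75360042-75360291, the Synm window chr7:67759743-67759992 on the minus strand, the Vim window chr2:13574061-13574310 and the Nes window chr3:87970843-87971092.
Des: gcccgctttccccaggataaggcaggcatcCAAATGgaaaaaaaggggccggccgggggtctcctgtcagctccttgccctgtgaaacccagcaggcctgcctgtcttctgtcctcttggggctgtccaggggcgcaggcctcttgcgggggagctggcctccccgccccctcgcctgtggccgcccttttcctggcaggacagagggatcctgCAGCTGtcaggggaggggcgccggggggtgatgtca
Synm: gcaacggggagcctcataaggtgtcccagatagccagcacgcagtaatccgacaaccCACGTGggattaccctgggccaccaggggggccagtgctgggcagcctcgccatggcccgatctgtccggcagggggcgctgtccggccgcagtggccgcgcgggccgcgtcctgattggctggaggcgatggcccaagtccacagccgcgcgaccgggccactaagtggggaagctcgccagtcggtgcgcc
Vim: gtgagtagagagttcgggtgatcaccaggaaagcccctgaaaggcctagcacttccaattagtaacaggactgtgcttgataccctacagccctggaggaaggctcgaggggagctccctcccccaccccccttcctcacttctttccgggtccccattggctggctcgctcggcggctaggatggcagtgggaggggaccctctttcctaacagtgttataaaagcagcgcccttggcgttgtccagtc
Nes: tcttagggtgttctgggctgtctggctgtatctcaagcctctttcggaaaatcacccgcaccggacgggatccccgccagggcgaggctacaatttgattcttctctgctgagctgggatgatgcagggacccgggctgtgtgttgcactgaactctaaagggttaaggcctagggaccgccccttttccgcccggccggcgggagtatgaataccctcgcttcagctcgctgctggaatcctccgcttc

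On both strands, the E-box CANNTG was present in 66.2% of the 32851 mouse promoter windows of this length. The Des window held 2, starting 220 and 36 bases before the start site, and the nearer one had the letters CAGCTG, which 13.0% of all windows hold. The Synm window held 1 E-box and the Vim and Nes windows held 0. Of the windows not printed, those of Lmnb2 held 4 and 1, Krt8 held 2, and Sync and Krt18 held 1 each. Both Lmna windows held 0. Lmnb2 and Krt8 were lower in the adult than at E18.5, so E-boxes were not confined to members higher in the adult. TATAAA, which 12.4% of windows hold, was found in the Vim window 32 bases before the start site. The CArG box (1.47% of windows) and the MEF2 site (2.92%) had no match in the windows of the 9 members that the promoter table lists. A match is a description of these letters and not a measured binding site.

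Total gene counts per library lay between 125402932 and 157868359. All 7 markers of myofibres (Acta1, Ckm, Myh4, Tnnt3, Mb, Actn3 and Pygm) had counts in every library, with summed values from 21200 FPKM at E18.5 to 97400 FPKM at PN28, so the labelled tissue was present in each. FPKM (fragments per kilobase of transcript, relative to all mapped fragments) is scaled to library size, whereas the tests used edgeR's TMM scaling, whose factors ranged from 0.714 to 1.452. With library size alone the median over all genes, as a log2 fold change, was -0.66 from PN2 to PN14 and -1.08 from E18.5 to adult, against -0.012 and -0.054 with TMM. Calls that end or appear with library size alone are therefore given beside those with TMM, for members and named partner genes one by one and for lists as counts. The word "called" is used for genes with an adjusted p below 0.05 that also differed by 1 or more on the log2 scale.

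Desmin dominated the members at every stage, and its lead over vimentin was larger in every later library than at E18.5. Des, the main filament gene of mature muscle, had 985 FPKM at E18.5, 1188 at PN2, 1284 and 1085 for the first and the second PN14 mouse, 1245 at PN28 and 1816 in adult muscle. The E18.5 library was the lowest and the adult the highest, while the PN2 and PN28 values lay between those of the PN14 mice (1180 ± 141, SD, n = 2). Vim, which encodes the filament of mesenchymal cells and immature muscle, had 748 FPKM at E18.5, 642 at PN2, 137 and 257 at PN14, 150 at PN28 and 71.8 in adult muscle. The perinatal libraries lay above every later library, the highest of which was the second PN14 mouse (PN14 197 ± 84.7, SD, n = 2). Within a library, where no scaling between libraries enters, the ratio of Des to Vim was 1.32 at E18.5, 1.85 at PN2, 9.39 and 4.23 at PN14, 8.31 at PN28 and 25.3 in adult muscle.

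**Figure D1:**
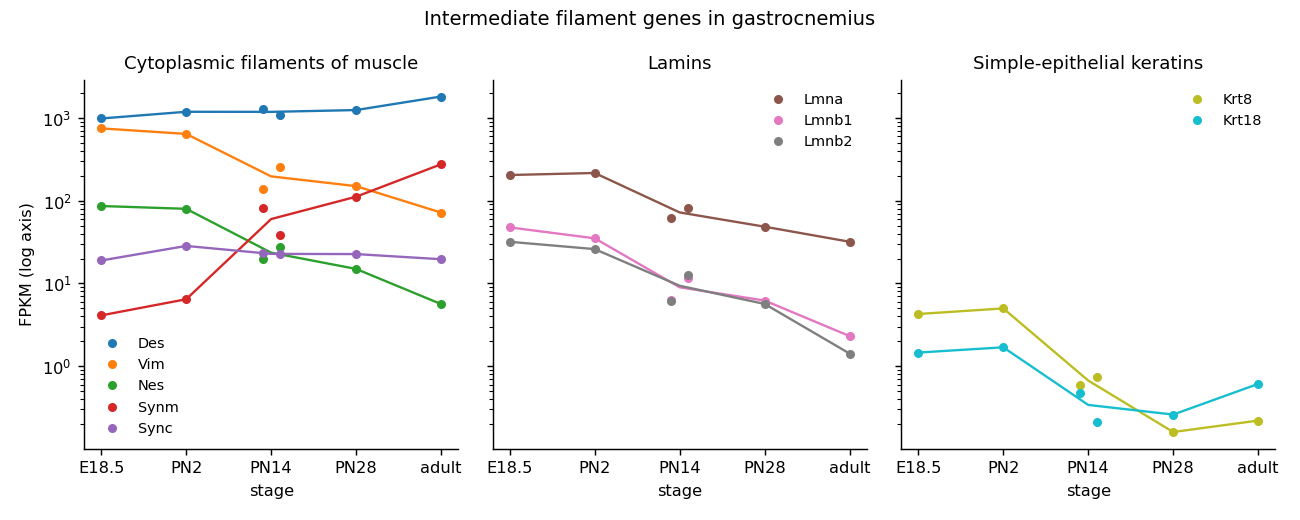
FPKM of the 10 genes (log axis) against stage, with a point for each library and a line through the stage values (the mean of the 2 libraries at PN14). Synm climbs from 4.11 to 275 FPKM and Des stays between 985 and 1816 FPKM, while Vim, Nes and the lamins are lower in every later library than in the perinatal ones.

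Synemin showed the widest range. Synm had 4.11 FPKM at E18.5, 6.44 at PN2, 82.0 and 38.0 at PN14, 112 at PN28 and 275 in adult muscle. Its highest value was 67.0 times its lowest, and in rank of FPKM among all entries it stood 9309th at E18.5 and 234th in the adult. The PN14 libraries did not overlap with the perinatal ones, but they differed from each other by more than 2-fold (60.0 ± 31.1, SD, n = 2). Nes, which encodes the nestin filament of muscle and neural precursors, ran the other way, with 86.2 FPKM at E18.5, 79.7 at PN2, 19.7 and 27.4 at PN14, 15.0 at PN28 and 5.63 in adult muscle. Nes at PN14 was 23.5 ± 5.40 (SD, n = 2), below both perinatal values. The ratio of Synm to Nes was 0.0477 at E18.5, 0.0808 at PN2, 4.16 and 1.39 at PN14, 7.46 at PN28 and 48.9 in adult muscle, so synemin passed nestin between PN2 and PN14 in both mice.

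Syncoilin had the narrowest range of the members on the FPKM scale. Sync, whose product binds alpha-dystrobrevin and desmin, had 18.9 FPKM at E18.5, 28.4 at PN2, 23.1 and 22.4 at PN14, 22.6 at PN28 and 19.6 in adult muscle. PN2 was the highest library and E18.5 the lowest, and the PN14 mice were close to each other (22.8 ± 0.544, SD, n = 2). Compared with Des its FPKM ratio went from 0.0192 in the E18.5 library and 0.0239 at PN2 to 0.0108 in adult muscle.

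The 3 lamin genes were highest before or just after birth and lowest in the adult. Lmna, which gives lamins A and C by alternative splicing, had 204 FPKM at E18.5, 216 at PN2, 61.5 and 82.7 at PN14, 48.5 at PN28 and 31.9 in adult muscle. Lmnb1 had 47.5 FPKM at E18.5, 35.1 at PN2, 6.34 and 11.6 at PN14, 6.21 at PN28 and 2.31 in adult muscle. Lmnb2 had 31.9, 26.0, 6.17 and 12.6, 5.65 and 1.42 FPKM in the same order. For each of them the PN14 mice lay below both perinatal libraries, at 72.1 ± 15.0 for Lmna, 8.98 ± 3.73 for Lmnb1 and 9.37 ± 4.53 for Lmnb2 (SD, n = 2). The A-type gene exceeded the B-type genes throughout, with a ratio of Lmna to Lmnb1 of 4.30 in the E18.5 library, 6.16 at PN2, 9.70 and 7.12 at PN14, 7.81 at PN28 and 13.8 in adult muscle. The B-type genes stayed close to each other, the ratio of Lmnb1 to Lmnb2 lying between 0.924 in PN14 replicate 2 and 1.63 in the adult.

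The keratins Krt8 and Krt18, whose products pair in the filaments of simple epithelia, were low in all libraries. Krt8 had 4.27 FPKM (1182 counts) at E18.5, 4.99 (1372 counts) at PN2, 0.59 and 0.75 (130 and 198 counts) at PN14, 0.16 (41 counts) at PN28 and 0.22 (55 counts) in adult muscle. Krt18 had 1.46 FPKM (310 counts) at E18.5, 1.69 (356 counts) at PN2, 0.47 and 0.21 (79 and 43 counts) at PN14, 0.26 (52 counts) at PN28 and 0.61 (118 counts) in adult muscle. The ratio of Krt8 to Krt18 was 2.92 at E18.5, 2.95 at PN2, 1.26 and 3.57 at PN14, 0.615 at PN28 and 0.361 in adult muscle, so the PN14 mice stood on opposite sides of the perinatal ratio. Krt8 has an annotated pseudogene (Krt8-ps), with which its reads could be shared. The markers of simple epithelium Epcam, Cdh1, Cldn4 and Cldn7 summed to between 0.36 and 1.28 FPKM, and none was at 0 counts. At PN2, Cdh1 held 0.99 of the 1.28 FPKM. The markers did not move together. From E18.5 to adult Cdh1 had a log2 fold change of 2.91, whereas Epcam had -1.94, Cldn4 -4.42 and Cldn7 -4.53. Epcam, Cldn4 and Cldn7 had at most 56 counts in any library.

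**Figure D2:**
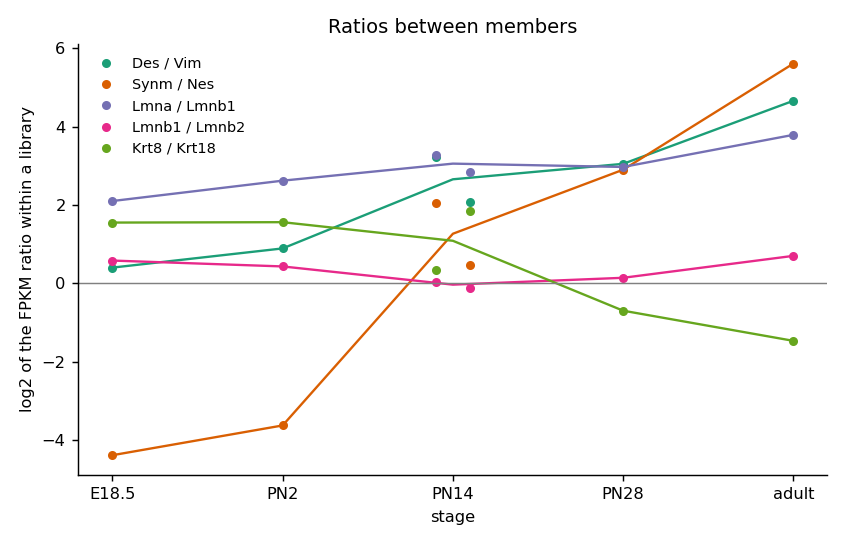
Log2 of the FPKM ratio of 5 pairs of members within each library against stage, with a point for each library and a line through the stage values. Synm over Nes covers the widest span, from -4.39 at E18.5 to 5.61 in the adult, and Lmnb1 over Lmnb2 the narrowest.

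On the FPKM scale, the make-up of the filament transcripts changed more than their sum. That sum depends on the scaling, because the TMM factor was 1.452 at E18.5 and 0.714 in the adult. It was not computed with TMM. Shares within a library do not depend on the scaling. The FPKM of the 10 members summed to 2132 in the E18.5 library, 2228 at PN2, 1621 and 1537 at PN14, 1605 at PN28 and 2225 in adult muscle. Des held 46.2% of that sum at E18.5, 53.3% at PN2, 79.2% and 70.6% at PN14, 77.6% at PN28 and 81.6% in adult muscle. The share of Vim was 35.1%, 28.8%, 8.44% and 16.7%, 9.34% and 3.23% in the same order. Synm held 0.193% at E18.5 and 12.4% in the adult, where it was the second of the members. Lmna and Nes each held less in every later library than at E18.5 and PN2, with Lmna at 9.58% at E18.5 and 1.43% in the adult.

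**Figure D3:**
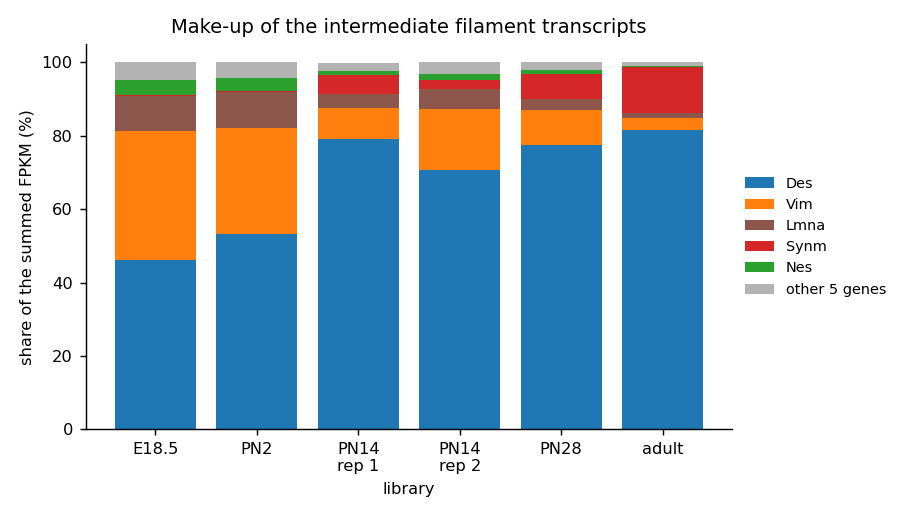
Share of the summed FPKM of the 10 members (%) held by Des, Vim, Lmna, Synm, Nes and the other 5 genes in each library, as stacked bars. Des and Vim are near each other at E18.5 (46.2% and 35.1%), and in the adult Des holds 81.6% and Synm 12.4%.

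From PN2 to PN14, the interval with replicates on its later side, 1 member rose and 3 fell, against 11.8% of all 16882 genes tested that rose and 11.2% that fell (23.0% called in either direction). All 10 members passed the filter on low counts and were tested. Synm rose by 3.90 on the log2 scale, with a standard error of 0.747 and an adjusted p of 0.0156 (quasi-likelihood test of edgeR, adjusted by Benjamini-Hochberg). Krt8 had -2.25 (standard error 0.282, adjusted p = 0.0063 in edgeR), Lmnb1 -1.34 (standard error 0.266, adjusted p = 0.0170 in edgeR) and Nes -1.12 (standard error 0.237, adjusted p = 0.0202 in edgeR), and these were the members that fell. Lmna had -0.94 with an adjusted p of 0.0337 in edgeR and missed the limit of size. Vim (-1.08), Krt18 (-1.62) and Lmnb2 (-0.85) missed the adjusted p (0.0756, 0.0761 and 0.0843 in edgeR). The Wald test of DESeq2 called Vim as well, and the exact test of edgeR and the fit without a filter called both Vim and Krt18. Des and Sync had 0.67 and 0.35 (standard errors 0.628 and 0.204, adjusted p = 0.441 and 0.232 in edgeR). Of the 7 myofibre markers, whose median was 2.65, 2 rose in this test. With library size alone 7 rose, against 5.06% of all genes. A missed call for an abundant muscle gene such as Des therefore does not show that it was unchanged.

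The scaling decided several of these calls. With library size alone, Synm rose and 7 members fell, namely Vim, Nes, the 3 lamins and both keratins, against 5.06% of all genes that rose and 29.4% that fell. The log2 fold change was then -2.32 for Krt18, -1.70 for Vim, -1.58 for Lmna and -1.47 for Lmnb2. Des stood at -0.002 and Sync at -0.32 with library size, so their direction from PN2 to PN14 depends on the scaling. The median over the members was -1.01 with TMM and -1.64 with library size. The direction of the other 8 members was the same with both.

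**Figure D4:**
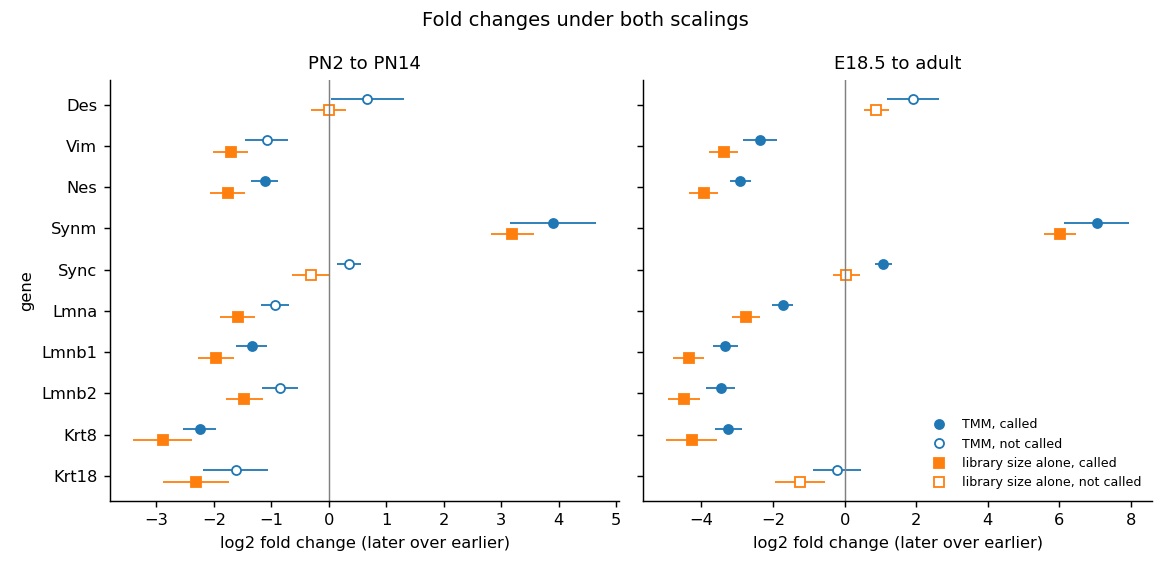
Log2 fold change of each member from PN2 to PN14 (left) and from E18.5 to adult (right), with TMM (circles) and library size alone (squares), filled where called; bars are standard errors. Synm lies far to the right under both scalings, and Des and Sync lie near 0 with library size from PN2 to PN14.

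From E18.5 to adult, where each stage has 1 library, 8 of the 10 members were called, 2 rising and 6 falling, against 44.9% of all genes called (21.4% rising and 23.6% falling). Synm rose by 7.05 on the log2 scale (standard error 0.907, adjusted p = 0.00234 in edgeR). The members that fell were Lmnb2 (-3.46), Lmnb1 (-3.34), Krt8 (-3.25), Nes (-2.91), Vim (-2.35) and Lmna (-1.73), with adjusted p from 0.00157 for Nes to 0.00873 for Vim in edgeR. Sync rose by 1.08 (standard error 0.236, adjusted p = 0.0117 in edgeR), but its log2 fold change was 0.051 with library size alone and it was not called. Des had 1.91 (standard error 0.728) and did not pass (adjusted p = 0.0687 in edgeR), and 0.88 with library size. The Wald test of DESeq2, the exact test of edgeR and the fit without a filter called Des as rising (1.89, 1.91 and 1.88). Krt18 had -0.22 (adjusted p = 0.797 in edgeR). With library size 1 member rose and the same 6 genes fell, against 7.98% and 45.6% of all genes.

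In the intervals on either side of PN2 to PN14, no member was called in edgeR's quasi-likelihood test. From E18.5 to PN2 the background was 0.0296% of genes called, and the member log2 fold changes lay between -0.44 for Lmnb1 and 0.65 for Synm, with Sync alone under an unadjusted p of 0.05. From PN14 to PN28 the background was 0.0178%. There Krt8 had -1.85 (standard error 0.347, adjusted p = 0.342 in edgeR, 1 member under an unadjusted p of 0.05), and Synm 1.07 (standard error 0.584). Krt8 was the only member called there with library size alone and with edgeR's exact test (-2.09 and -1.85).

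From PN28 to adult the background was 0.521%, and 3 members, Lmnb2 (-1.85, standard error 0.386), Lmnb1 (-1.29, standard error 0.326) and Nes (-1.27, standard error 0.287), had an unadjusted p under 0.05. Their adjusted p were 0.0922, 0.131 and 0.106 in edgeR's quasi-likelihood test. The Wald test of DESeq2 and the exact test of edgeR called these 3 genes as falling, against 4.79% and 6.79% of all genes called by those tests. Library size alone called them too, together with a rise of Synm (1.29), against 5.14% of all genes. Krt18 and Krt8 had 1.38 and 0.62 in this interval (adjusted p = 0.375 and 0.465 in edgeR).

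The PN14 mice differed from each other. Replicate 2 lay nearer to PN2 than replicate 1 in 9 of the 10 members with TMM, Krt18 being the exception, and in 7 with library size alone. Over all genes tested the share was 70.1%. Replicate 2 had more Vim (0.65 on the log2 scale after TMM), Lmnb2 (0.76) and Lmnb1 (0.61) than replicate 1, and less Synm (-1.36), Krt18 (-1.14) and Des (-0.50). Synm and Krt18 thus differed by at least 2-fold between the mice, as did 2.82% of all genes. In replicates 1 and 2 the 7 myofibre markers summed to 87600 and 69400 FPKM, 8 proliferation genes to 40.8 and 70.5 FPKM and 5 Schwann cell markers to 264 and 946 FPKM. Their part in the difference between the mice was not tested.

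Proliferation genes and markers of some other cell types had lower summed FPKM in every later library than at E18.5 and PN2, which did not hold for the summed Schwann cell and endothelial markers. In bulk tissue, fewer cells of a type and less RNA per cell cannot be told apart. Over all genes, 11.8% rose and 11.2% fell from PN2 to PN14, and 21.4% and 23.6% from E18.5 to adult. With library size alone these shares were 5.06% and 29.4%, and 7.98% and 45.6%. The 8 proliferation genes (Mki67, Top2a, Cdk1, Ccnb1, Ccna2, Mcm2, Mcm5 and Pcna) summed to 280 FPKM at E18.5, 213 at PN2, between 40.8 and 70.5 at PN14, 42.5 at PN28 and 18.1 in adult muscle, and 7 of the 8 fell from PN2 to PN14 (8 with library size alone). The 7 fibroblast markers (Col1a1, Col1a2, Col3a1, Dcn, Lum, Pdgfra and Postn) summed to 7090 FPKM at E18.5, 5790 at PN2, between 1780 and 2140 at PN14, 1900 at PN28 and 519 in adult muscle. Of these, 1 fell from PN2 to PN14 (5 with library size alone) and 6 fell from E18.5 to adult with either scaling. The 3 satellite cell markers (Pax7, Myf5 and Cdh15) summed to 59.6 FPKM at E18.5, 53.0 at PN2, between 11.4 and 17.6 at PN14, 8.25 at PN28 and 6.82 in adult muscle, with 2 falling from PN2 to PN14 (3 with library size alone) and 3 from E18.5 to adult. The 4 macrophage markers went from 47.1 FPKM at E18.5 to 10.8 in the adult, and 0 were called from PN2 to PN14 in edgeR with TMM (2 with an unadjusted p under 0.05) and 2 fell with library size alone. The 6 endothelial markers had 185 FPKM at E18.5, between 175 and 261 at PN14 and 69.0 in the adult, with 2 rising from PN2 to PN14 (0 with library size alone). From E18.5 to adult 0 of the 6 were called (0 with an unadjusted p under 0.05), and 5 fell with library size alone. The 5 Schwann cell markers lay between 162 FPKM in the adult and 946 FPKM in the second PN14 mouse, and 0 were called from PN2 to PN14 in edgeR with TMM (0 with an unadjusted p under 0.05), with a median log2 fold change of 0.19 (-0.42 with library size alone). With library size alone 2 of them fell. From E18.5 to adult 1 Schwann cell marker rose and 0 fell with TMM, and 1 rose and 2 fell with library size alone. No gene of these lists was at 0 counts in any library, and their part in the lower Vim, Nes and lamin values was not tested.

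Keratinocyte genes were followed because Krt8 and Krt18 are epithelial. The 7 markers Krt5, Krt14, Krt10, Krt1, Krtdap, Lor and Dsp summed to 37.8 FPKM at E18.5, 9.02 at PN2, 3.42 and 5.35 at PN14, 2.89 at PN28 and 1.58 in adult muscle, where 3 of them (Krt5, Krt14 and Krt1) had 0 counts. Krt5 and Krt14 also had 0 counts in the first PN14 mouse and at PN28. From E18.5 to PN2, where this sum went from 37.8 to 9.02 FPKM, Krt8 and Krt18 had log2 fold changes of 0.23 and 0.21 (adjusted p = 0.995 and 1 in edgeR). The part of epidermal RNA in the keratin values was not tested.

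In mm9 coordinates (GENCODE M1), Des lies on the plus strand of chromosome 1 from 75356904 to 75365154, Vim on the plus strand of chromosome 2 from 13495554 to 13504453, and Sync on the plus strand of chromosome 4 from 128964861 to 128985803. Synm lies on the minus strand of chromosome 7 from 74875047 to 74904628 and Lmnb2 on the minus strand of chromosome 10 from 80363948 to 80380990. Lmnb1 lies on the plus strand of chromosome 18 from 56867467 to 56913078. The remaining genes share a chromosome in pairs, and genes lying between them were not looked for. Nes (chromosome 3, plus strand, 87775000 to 87784373) and Lmna (minus strand, 88285070 to 88313878) are 501 kb apart, and Krt8 (chromosome 15, minus strand, 101827142 to 101834773) and Krt18 (plus strand, 101858647 to 101862457) are 23.9 kb apart.

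The FPKM columns also carry the transcript length that RSEM used, which is a mean over the isoforms of a gene weighted by their abundance. Dividing counts by FPKM and library total gave that length, with no test. For 5411 genes with high counts and FPKM in every library, a limit that Synm, Lmnb1 and Lmnb2 missed in their lowest library, it stayed within 0.995 and 1.006 of its E18.5 value in the adult library (5th to 95th percentile). Des, Vim, Nes, Sync, Lmnb1 and Lmnb2 had a ratio to their E18.5 length between 1 and 1.002 (to 3 decimals) in all libraries. Lmna shortened from 2409 bases at E18.5 to 2349 at PN2, 2339 and 2358 at PN14, 2330 at PN28 and 2280 in adult muscle, a reduction of 5.37%. In the adult library 1.02% of the genes had a lower relative length. Synm went from 7181 bases at E18.5 to 7161 at PN2, 7027 and 7054 at PN14, 7032 at PN28 and 6989 in adult muscle, and 1.89% of the genes were lower. For both genes every later library was below the E18.5 value, and the mice at PN14 differed by less than their distance from E18.5. The annotation lists 7 transcripts for Lmna and 4 for Synm, and which isoforms changed was not analysed here. Low FPKM values of the keratins, given to 2 decimals, are too coarse for this measure.

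**Figure D5:**
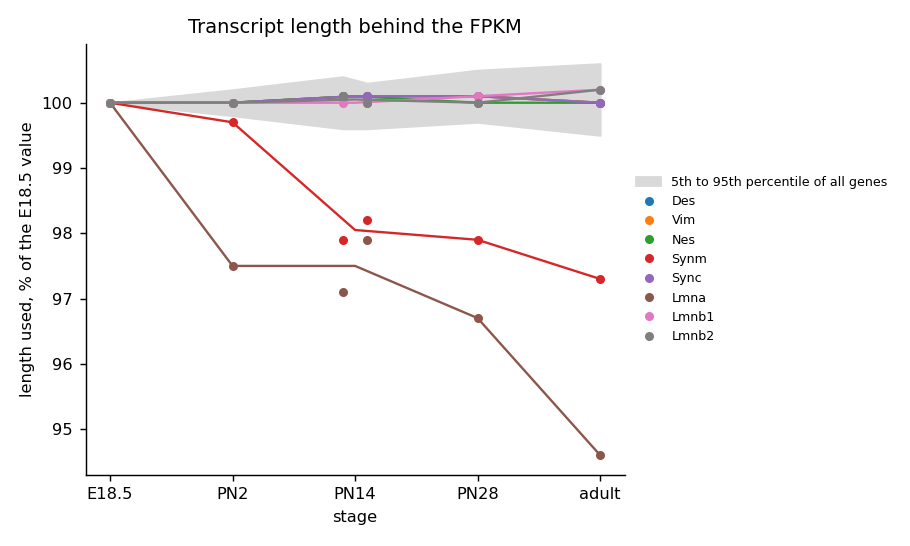
Transcript length behind the FPKM values as a percentage of the E18.5 value, against stage, for 8 members, with points for libraries, lines through stage values and a grey band from the 5th to the 95th percentile of 5411 genes. Lmna and Synm leave the band, 5.37% and 2.66% below E18.5 in the adult, and the other 6 lie inside it.

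The partners of the filaments were followed as lists. Of 8 linker and chaperone genes, 2 rose and 1 fell from PN2 to PN14, against 11.8% and 11.2% of all genes. Their median log2 fold change was 0.29 (-0.38 with library size). Cryab, the small heat shock protein that binds desmin, had 272 FPKM at E18.5, 264 at PN2, 667 and 412 at PN14, 480 at PN28 and 280 in adult muscle. It rose from PN2 to PN14 by 1.72 (standard error 0.501, adjusted p = 0.0472 in edgeR). With library size alone it rose by 1.03. Jup, which encodes plakoglobin, rose by 1.25 with TMM (adjusted p = 0.0123 in edgeR) but was not called with library size alone (0.59, adjusted p = 0.123). Macf1, a giant crosslinker of microtubules and actin, fell by 1.07 on the log2 scale (adjusted p = 0.0186 in edgeR). The other 5 were not called. From E18.5 to adult 4 of the 8 rose and 3 fell, and with library size alone 2 rose and 3 fell. Over all genes the shares were 21.4% and 23.6%, and 7.98% and 45.6% with library size alone.

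Of 15 nuclear envelope partners of the lamins, 1 rose and 3 fell from PN2 to PN14, against 11.8% and 11.2% of all genes. Calls in either direction were near the 23.0% over all genes. The median was 0.06 (-0.60 with library size). Sun2, whose product spans the inner nuclear membrane and links lamins to the cytoskeleton, rose by 1.25 (standard error 0.277, adjusted p = 0.0228 in edgeR), with 22.0 FPKM at E18.5, 23.5 at PN2, 37.0 and 32.9 at PN14, 41.1 at PN28 and 47.9 in adult muscle. With library size alone Sun2 had 0.58 in this interval and was not called (adjusted p = 0.133 in edgeR). In all, 0 of the 15 then rose and 5 fell, against 5.06% and 29.4% of all genes. The genes that fell with TMM were Nrm, which encodes the membrane protein nurim (-1.40), Syne3, which encodes nesprin-3 (-1.34), and Tmpo, which encodes the lamin-binding LAP2 proteins (-1.08), with adjusted p of 0.0169, 0.0100 and 0.0234 in edgeR. Banf1, a chromatin-binding partner of lamins, had between 95.7 and 122 FPKM in all libraries and a log2 fold change of 0.73 (adjusted p = 0.0326 in edgeR), which was under the limit of size. With library size alone Banf1 had 0.08 (adjusted p = 0.856 in edgeR). From E18.5 to adult 2 of the 15 rose and 4 fell (2 and 6 with library size alone). Over all genes 21.4% rose and 23.6% fell (7.98% and 45.6% with library size alone). None of the 5 enzymes that process lamins (Zmpste24, Icmt, Fnta, Fntb and Rce1) was called from PN2 to PN14 in edgeR, 0 had an unadjusted p under 0.05, and their median was 0.25 (-0.40 with library size). From E18.5 to adult 1 of the 5 enzymes rose, namely Fnta (1.16), and 0 fell, against 21.4% and 23.6% of all genes. With library size alone 0 rose and 2 fell, against 7.98% and 45.6%.

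Of 17 other intermediate filament genes, 1 rose and 5 fell from PN2 to PN14 (1 and 10 with library size alone). Over all genes 11.8% rose and 11.2% fell (5.06% and 29.4% with library size alone). The median of the 17 was -1.90 (-1.87 with genes at or under 3 counts set to that floor). The neurofilament gene Nefm had 461 counts at PN2, and 9 and 30 at PN14, or -3.78 on the log2 scale (standard error 0.479, adjusted p = 0.00642 in edgeR). Nefl, the fifth gene that fell and named outside the rule, had 338 counts at PN2, and 10 and 28 at PN14 (-3.36, adjusted p = 0.00721 in edgeR). Ina, a neuronal filament gene, had 20 counts at PN2 and 0 in both PN14 libraries, and the epidermal Krt1 had 207 at PN2 and 1 in each. Krt14 had 83 counts at PN2, and 0 and 9 at PN14 (-3.40, adjusted p = 0.0365 in edgeR). Krt19, named after its values were seen because it was the only gene of the list that rose, had 0.15 FPKM at E18.5 and PN2, 0.61 and 1.15 at PN14, 0.62 at PN28 and 0.61 in adult muscle, and rose by 3.13 (standard error 0.529, adjusted p = 0.0117 in edgeR). Krt8 and Krt19 thus had opposite directions over the same interval. From E18.5 to adult 2 of the 17 rose and 9 fell, against 21.4% and 23.6% of all genes. With library size alone 2 rose and 13 fell, against 7.98% and 45.6%.

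Among themselves, the members with the most similar profiles over the 6 libraries were Nes and Lmnb1, whose centred log2 values differed by a root mean square of 0.225, followed by Vim and Lmna (0.241) and Nes and Lmnb2 (0.261). Des and Sync were 0.356 apart. Krt8 and Krt18 were 1.137 apart, and the farthest pair was Synm and Krt8 (3.93). These distances share the same libraries and are a description. In the whole table of 8832 other genes with a mean of at least 10 normalised CPM, the genes nearest to Des were Pou6f1 (0.024), Slc6a8 (0.054) and Wdr45 (0.059). Those nearest to Vim were Ptprf, S100a11 and Chst14 (0.085 to 0.104), and to Nes Dact3, Prepl and Gpr153 (0.090 to 0.101). Sync had Tmem38b, Scarb2 and Psmc4 (0.073 to 0.095). Lmna had Cmip, Agtr1a and Pafah1b2 (0.047 to 0.060), Lmnb1 had Rcn1, Prdx4 and Cks1b (0.068 to 0.083), and Lmnb2 had Fscn1, Lamb1 and Edn3 (0.120 to 0.135). The profile of Synm was farther from its nearest genes, with Abcb4, Fbxo40 and Thrb at 0.265, 0.334 and 0.338. Distances were not scaled for range, so a wide range such as that of Synm tends to enlarge them. Krt8 was nearest to Cdkn1a, Col23a1 and Rrad (0.308 to 0.372) and Krt18 to Wdr44, Angel1 and Bmpr1b (0.311 to 0.381). The limit of 10 normalised CPM left out genes as low as the keratins, so their distances do not show that they were isolated.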

How the data were processed

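Polyadenylated RNA of 6 gastrocnemius libraries was sequenced as paired ends. Per the labels, TopHat2 2.0.5 and RSEM were used on mm9. The authors deposited expected counts for RefSeq gene models, which are not normalized. The deposited FPKM values are scaled by the authors to gene length and library size. After rounding to whole numbers, counts entered edgeR 4.0.16 under R 4.3.3 (TMM, filterByExpr by stage, quasi-likelihood test across 16882 genes, all libraries in one fit, Benjamini-Hochberg adjustment). The fit had 1 residual degree of freedom (common biological coefficient of variation 0.188). Standard errors are the log2 fold change divided by the root of the F statistic. On simulated data for PN2 to PN14, 199 of 200 changed genes were recovered, and 27 of 226 calls were false. Promoters and coordinates were read with Python 3.11.15 and plotted with matplotlib 3.10.9.

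All members are named. Of each partner list, up to 4 called genes with the largest change from PN2 to PN14 and genes of at least 100 FPKM are named, plus the 3 genes nearest in profile to each member. The members and lists were chosen with earlier results of these data known. Alternatives were library size alone, DESeq2's size factors or Wald test (version 1.42.0), edgeR's exact test, other filters, unrounded counts, other pseudocounts (0.1 or 1 CPM, no test), 2-fold counts without a test, and either PN14 replicate left out.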

Additional observations from a re-analysis of the deposited data

How the results depend on the processing

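Only PN14 has replicates, and the p-values assume that the single mice and pools of the other stages vary as that pair does. No paired analysis was possible because each stage came from different mice or pools. From PN2 to PN14, 4 members were called, and 8 with library size alone. From PN14 to PN28, 0 members were called, 1 with library size alone or edgeR's exact test, and 2 counted as 2-fold differences without a test. Library size alone called 262 of all 16882 genes there and the exact test 241. From PN28 to adult, 0 members were called, 4 with library size alone and 3 with DESeq2's Wald test or edgeR's exact test. Without the filter 2 were called, against 835 of all 19590 genes, and 5 counted as 2-fold differences without a test. Leaving out either PN14 replicate gave between 1 and 2 members with a 2-fold difference from PN14 to PN28 and between 5 and 7 from PN2 to PN14. Synm was the member lost from PN14 to PN28 without replicate 2. No share of all genes was computed for 2-fold differences without a test, so those member counts have no background beside them. No called member changed direction under any alternative, and Sync lost its call from E18.5 to adult with library size alone (0.051) and with a filter on mean CPM (0.995). DESeq2's size factors and unrounded counts changed none of the 50 member calls. Over all genes, 88 were called from PN28 to adult and between 13 and 1146 under the alternatives, 3 from PN14 to PN28 and between 3 and 262, and 5 from E18.5 to PN2 and between 4 and 346.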

Other observations

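Some filament genes of nerve and epidermis were detected at low levels. Nefl had 2.83 FPKM at E18.5, 1.11 at PN2 and at most 0.10 FPKM later, and Nefm had 2.33, 0.92 and at most 0.06 FPKM. Krt10 had 13.8 FPKM (4449 counts) at E18.5 and 2.13 FPKM (683 counts) at PN2, and between 0.92 and 2.32 FPKM in the later libraries. Prph, which encodes the peripherin filament of peripheral neurons, had between 1.27 and 1.79 FPKM up to PN28 and 0.42 FPKM in the adult. These genes were chosen after their values were seen.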
